A study of Mus musculus with 4 samples.

Results

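Runx1, its partner Cbfb and 6 further transcription regulators of blood and blood vessels (Gata2, Tal1, Lyl1, Lmo2, Erg and Fli1) were followed through the cells of the growing mouse femoral epiphysis. Together Runx1 and these 6 regulators are known as the heptad. The 8 genes were matched by symbol, and each symbol had 1 entry among the 55416 features of the tables. The epiphysis, the cartilaginous end of the thigh bone, came from WT mice on postnatal days 7, 8, 10 and 12, with 1 droplet single-cell RNA library per day and 4 libraries in all. All 4 groups share the WT genotype and carry no treatment in the labels, and how many animals went into a library is not stated in the labels. Transcripts were read at the 3' end with unique molecular identifiers (UMIs), and red blood cells were removed before loading per the labels' protocol.

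Runx1 is the DNA-binding subunit of core-binding factor, and Cbfb is the subunit that stabilizes it on DNA. In the embryo Runx1 is required where endothelial cells give rise to blood cells, and it remains in use in most blood lineages. Gata2 is a zinc-finger factor of stem cells and mast cells. Tal1 and Lyl1 are related basic helix-loop-helix factors, and Lmo2 is the adaptor that joins them to GATA factors. Erg and Fli1 are ETS factors shared by blood and endothelium. In blood stem and progenitor cells the heptad proteins are known to bind many regulatory regions together. Runx1 and Erg also have known roles in skeletal tissue.

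The libraries held 11309, 11464, 10028 and 16251 cells used here on days 7, 8, 10 and 12, with median depths of 3103, 3168.5, 7706.5 and 6563 UMIs per cell, so days 10 and 12 were read more deeply per cell than days 7 and 8. Over all barcodes the members had from 2831 UMIs (Gata2) to 79136 UMIs (Runx1). Between 72 and 282 cell barcodes were shared by any pair of libraries, and what they stand for was not tested. The deposited tables hold no cell types, so classes were rebuilt by clustering without the members, and each was named "-like" from markers that include no member. In the 51, 299, 282 and 391 endothelial-like cells all 10 pan-endothelial markers were detected on every day, and in the 33 and 56 hematopoietic stem or progenitor-like cells of days 10 and 12 all 10 of their markers were. In the pro-B or pre-B-like class Rag1 was at 0 on each day it was measured. Levels are given for classes of at least 20 cells in a library, as CPM (UMIs of the gene scaled to a fixed total of UMIs in the class sum) with exact Poisson 95% intervals. Shares of cells carry exact Clopper-Pearson 95% intervals. With 1 library per day there is no replicate error and no test between days, and intervals and limits cover counting error only. The 3'-end counts depend on each transcript, so CPM are compared within a gene and not between genes.

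Promoter sequences are shown for Runx1, which is transcribed from a pair of starts, and for Tal1, which was highest in erythroid cells. RefSeq sequences of GRCm38.p6 were at hand for 6 of the 8 members. Each window runs from 250 bases before to 50 bases after a start. Capitals mark the letters GATAA for GATA factors, the letters TGTGGT for RUNX factors, the letters CCGGAA for ETS factors and the letters CANNTG for E-boxes, on either strand. In these windows no base was shared between matches.
Runx1, first start, chr16:92826025-92826324, minus strand: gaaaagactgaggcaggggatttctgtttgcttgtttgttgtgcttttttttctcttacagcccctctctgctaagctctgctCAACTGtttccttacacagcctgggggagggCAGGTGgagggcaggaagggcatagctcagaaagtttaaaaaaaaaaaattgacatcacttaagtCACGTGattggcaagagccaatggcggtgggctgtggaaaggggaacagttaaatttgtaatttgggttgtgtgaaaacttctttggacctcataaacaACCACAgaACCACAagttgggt
Runx1, second start, chr16:92697280-92697579, minus strand: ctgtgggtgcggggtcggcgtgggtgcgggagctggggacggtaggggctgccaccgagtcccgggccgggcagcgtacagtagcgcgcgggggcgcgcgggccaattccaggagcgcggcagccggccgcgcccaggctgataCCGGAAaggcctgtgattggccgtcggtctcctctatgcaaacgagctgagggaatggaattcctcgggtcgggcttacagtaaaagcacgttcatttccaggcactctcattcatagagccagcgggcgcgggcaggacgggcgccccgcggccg
Tal1, first start, chr4:115056176-115056475, plus strand: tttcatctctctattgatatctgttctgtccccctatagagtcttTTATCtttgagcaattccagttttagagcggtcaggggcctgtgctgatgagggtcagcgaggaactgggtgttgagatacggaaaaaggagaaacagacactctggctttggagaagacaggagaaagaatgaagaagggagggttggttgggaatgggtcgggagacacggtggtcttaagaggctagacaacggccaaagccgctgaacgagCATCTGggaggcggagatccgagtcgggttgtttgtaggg
The window at the first Runx1 start held 2 RUNX and 3 E-box matches and had a GC content of 45%. The window at the second held 1 ETS match and had a GC content of 69%. The Tal1 window shown held 1 GATA and 1 E-box match, and the window at the second Tal1 start, not shown, held 0 matches of any of the 4 motifs. Of 32851 promoter windows of the same length, 25.4% held the GATA letters, 16.8% the RUNX letters, 14.9% the ETS letters and 72.3% the E-box letters, so the matches are descriptions of letters and not of binding. Counts from the 3' end do not tell the starts of a gene apart.

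Runx1 was a gene of nearly all blood classes and of reticular stromal-like cells. It was lowest in endothelial-like cells, from which subsets with markers of another class had been set apart. No such subsets were set apart in the cartilage and stromal classes. On day 12 the Runx1 level was 1590.3 CPM (interval 1394 to 1807) in the 31 mast cell or basophil-like cells, 748 CPM (interval 689 to 810.2) in hematopoietic stem or progenitor-like cells and 604 CPM (interval 584 to 625) in pro-B or pre-B-like cells. The mast and progenitor levels stood apart from each other and from the rest, while the pro-B level overlapped that of dendritic-like cells (597 CPM). The reticular stromal-like cluster passed 5 of its class markers, with Mmp10, Mmp13 and Cxcl12 among its leading genes. It came next in Runx1 at 582 CPM (interval 565 to 599.6), above mature B, monocyte, T and macrophage classes. Below these, Runx1 was 256 CPM in osteoclast-like cells and 224 CPM in osteoblast lineage-like cells. It was 113 CPM in articular chondrocyte-like and 76.1 CPM in the other chondrocyte-like cells. Endothelial-like cells were last of 11, 15, 22 and 23 classes on days 7, 8, 10 and 12, at 8.54, 16.96, 25.6 and 26.1 CPM on days 7, 8, 10 and 12. No class had a lower Runx1 level against which free RNA could be gauged.

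Cbfb was spread far more evenly, except in the red cell line. On day 12 Cbfb was highest in pro-B or pre-B-like cells at 351 CPM (interval 336 to 367), and 19 of 23 classes lay between 131 and 295 CPM. It was 203 CPM in endothelial-like and 194 CPM in chondrocyte-like cells, which overlapped within their intervals. Early and late erythroid-like cells had the lowest Cbfb levels, 26.1 CPM (interval 21.8 to 30.98) and 32.6 CPM (interval 24.1 to 43.1).

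Gata2 marked mast cells, endothelium and progenitors. On day 12 the Gata2 level was 1604 CPM (interval 1406 to 1821) in mast cell or basophil-like cells, 73.7 CPM (interval 65.6 to 82.4) in endothelial-like cells and 57.9 CPM (interval 42.4 to 77.2) in hematopoietic stem or progenitor-like cells. The endothelial and progenitor levels overlapped. In the other classes Gata2 was at most 18.1 CPM, and in chondrocyte-like cells it was 0.910 CPM. A progenitor subset led by Slamf1 and Muc13 (39 cells), which held markers of both the stem or progenitor and the megakaryocyte class and so was left unnamed, had 404 CPM (interval 352 to 462). Set against hematopoietic stem or progenitor-like cells, that subset was 6.86-fold (interval 5.06 to 9.81) higher in Gata2 and 2.21-fold (interval 1.54 to 3.25) higher in Tal1, with Erg at a ratio of 0.411 (interval 0.278 to 0.573). These were 2 of 8 members higher and 1 of 8 lower from 2-fold, where 5.24% and 8.45% of all genes with at least 20 UMIs were. Mast cell or basophil-like cells were 27.2-fold (interval 20.1 to 38.9) higher than hematopoietic stem or progenitor-like cells in Gata2 and 2.13-fold (interval 1.82 to 2.48) higher in Runx1. These were 2 of 8 members higher, where 13.3% of all genes were. Lyl1, Lmo2 and Erg were lower in the mast cell or basophil-like cells, 3 of 8 members where 20.6% of all genes were, and Lyl1 rested on 2 UMIs at a ratio of 0.459 (interval 0.0367 to 1.23).

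Of the 23 classes, endothelial subsets not counted apart, early erythroid-like cells were highest in Tal1 and Lmo2. The Tal1 level there was 341 CPM (interval 325 to 357) on day 12, followed by 105 CPM in late erythroid-like, 62.9 CPM in hematopoietic stem or progenitor-like and 50.5 CPM in endothelial-like cells, of which the progenitor and endothelial levels overlapped. Lmo2 was 375 CPM (interval 358 to 393) in early erythroid-like cells, which overlapped the 339.8 CPM (interval 300.5 to 383) of hematopoietic stem or progenitor-like cells, and 255 CPM in late erythroid-like cells. Both were low in cartilage, at 1.66 CPM of Tal1 and 2.81 CPM of Lmo2 in chondrocyte-like cells. Lyl1 had another order, with its highest level in granulocyte progenitor-like cells, 74.00 CPM (interval 53.1 to 100.4), and overlapping levels in monocyte-like (58.9 CPM), monocyte progenitor-like (56.3 CPM), immature neutrophil-like and pro-B or pre-B-like cells. Lyl1 was 16.2 CPM in endothelial-like and 1.20 CPM in chondrocyte-like cells. In an older mouse annotation the exons of Lyl1 overlap those of Nfix on the opposite strand, and those of Runx1 an antisense gene, Gm26626. Whether counting used the strand is not stated in the labels, so reads of these pairs may be mixed.

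Erg and Fli1, the ETS members, were both prominent in endothelium, and each was also high elsewhere. On day 12 the Erg level was highest in articular chondrocyte-like cells at 275 CPM (interval 268 to 282), then 251 CPM (interval 238 to 265) in pro-B or pre-B-like cells. It was 192 CPM (interval 179 to 206) in endothelial-like and 190.0 CPM (interval 161 to 223) in hematopoietic stem or progenitor-like cells, which overlapped. Fli1 was 628 CPM (interval 604 to 652) in endothelial-like cells and overlapped the 593 CPM of immature or mature B-like cells, ahead of mast cell, T, macrophage, granulocytic and monocytic classes. It was 32.2 CPM in chondrocyte-like and 14.4 CPM in early erythroid-like cells.

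Within cartilage, Erg was higher in articular than in hypertrophic chondrocyte-like cells, and no order over all zones was measured. The articular cluster passed 6 of its class markers and was led by Vit, Gria1 and Cilp2. Its 10 leading genes held 1 articular marker and 1 of another class. No second class, chondrocyte included, had enough of its markers there. Articular markers were also passed by a tendon or ligament-like cluster (4) and a fibroblast-like cluster led by Tnn (3), so the name is tentative. Articular chondrocyte-like cells had 194 and 275 CPM of Erg on days 10 and 12, against 41.3 and 43.2 CPM in hypertrophic chondrocyte-like cells, a ratio of 4.67 (interval 3.90 to 5.73) on day 10 and 6.35 (interval 5.91 to 6.84) on day 12. Fli1 was also higher in articular cells, 3.62-fold and 3.04-fold. Runx1 was 2.92-fold higher on day 10 and 1.72-fold on day 12, the second of which is under the 2-fold used between classes. In all, 5 of 8 members were higher from 2-fold on day 10 and 4 of 8 on day 12, where 17.9% and 17.4% of all genes were. The other higher members, Gata2 and Lmo2, lay at or below 6.97 CPM in articular cells, and Gata2 on day 10 rested on 1 hypertrophic UMI and its interval included 1. On days 7 and 8, when articular and hypertrophic cells were few, the chondrocyte-like cluster led by Msmp and Prg4 (Prg4 makes the joint lubricant lubricin) was set against prehypertrophic chondrocyte-like cells. Erg was 191 and 204 CPM in the Msmp and Prg4 cluster and 33.2 and 31.6 CPM in prehypertrophic cells on days 7 and 8, a ratio of 5.70 and 6.40. From 2-fold, 3 of the 6 members with at least 20 UMIs were higher on day 7 and 2 of 5 on day 8, where 19% and 18.7% of all genes were. Erg and Fli1 were among them on both days.

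Among B-lineage cells Erg separated the early from the late cells. Immature or mature B-like cells had 81.5 and 70.4 CPM of Erg on days 10 and 12, against 307 and 251 CPM in pro-B or pre-B-like cells, a ratio of 0.268 (interval 0.218 to 0.321) and 0.282 (interval 0.232 to 0.336). Erg was the 1 member lower from 2-fold among the 7 with at least 20 UMIs, where 10.7% and 11.4% of all genes were. On day 10 Tal1 just passed 2-fold to the higher side, where 9.77% of all genes were. It was 19.5 CPM (27 UMIs) in the immature or mature and 9.72 CPM in the pro-B or pre-B-like cells. On day 12 Tal1 lay the other way, at 3.79 against 7.71 CPM. Fli1 was 592 and 593 CPM in the immature or mature cells and 358 and 314 CPM in the pro-B or pre-B-like cells, 1.66-fold and 1.89-fold higher and so under 2-fold on both days. In the bone-resorbing osteoclast-like cells Fli1 was 2.61, 6.36, 15.1 and 21.6 CPM on days 7, 8, 10 and 12, and in macrophage-like cells, which share their monocytic origin, 208, 194, 469 and 423 CPM on days 7, 8, 10 and 12. The ratio was 0.0249, 0.0374, 0.0326 and 0.0512 on these days, and the intervals of the levels did not overlap on any of these days. On day 7 the osteoclast level rests on 1 UMI, so that ratio has an interval of 0.000316 to 0.0708. Lyl1 and Lmo2 were lower from 2-fold in osteoclast-like cells on all 4 days too, Lyl1 with 2 osteoclast UMIs on days 7 and 8 at 0.339 (interval 0.0268 to 0.996) and 0.191 (interval 0.0153 to 0.502). The members lower from 2-fold numbered 3 of 5 measured on day 7, 4 of 7 on day 8, 5 of 8 on day 10 and 3 of 8 on day 12, where 17.7%, 14.9%, 22.6% and 17.7% of all genes were. Runx1 was 256, 176, 215 and 256 CPM on days 7, 8, 10 and 12 in osteoclast-like and 229.9, 248, 397 and 326 CPM on days 7, 8, 10 and 12 in macrophage-like cells, within 2-fold on each day.

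Blood progenitors and endothelium were far apart in Runx1, and 4 of 8 members stayed within 2-fold on each day. Hematopoietic stem or progenitor-like cells had 736 and 748 CPM of Runx1 on days 10 and 12, against 25.6 and 26.1 CPM in endothelial-like cells of the same libraries. The ratio was 28.5 (interval 23.5 to 35.4) on day 10 and 28.4 (interval 23.3 to 35.5) on day 12. Lmo2 was 385 and 339.8 CPM in progenitors and 135 and 95.4 CPM in endothelium, 2.86-fold and 3.57-fold higher. Lyl1 was 2.75-fold and 2.68-fold higher in progenitors. These 3 of 8 members were higher from 2-fold on both days, where 19.9% of all genes were on each. On each day 1 member was lower from 2-fold, where 24.9% and 22.2% of all genes were. It was Tal1 on day 10, at 0.402 (interval 0.227 to 0.613), and Fli1 on day 12, at 0.479 (interval 0.416 to 0.545). Gata2 and Erg were within 2-fold on both days, with Erg at a ratio of 0.993 (interval 0.824 to 1.18) on day 12. The progenitor sums come from 33 and 56 cells. Blood transcripts were present in the endothelial sum too, at 472 and 631 CPM summed over 9 of 9 pan-hematopoietic genes, and their part in the endothelial levels was not tested.

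Against the chondrocyte-like class, which leaves out articular cells, the endothelium was higher in the same 6 members on every day. On day 12 endothelial-like cells were 77.6-fold higher than chondrocyte-like cells in Gata2, 33.5-fold in Lmo2, 29.9-fold in Tal1, 19.5-fold in Fli1, 13.2-fold in Lyl1 and 3.68-fold in Erg. These 6 of 8 members were higher from 2-fold on days 7, 8, 10 and 12, where 43%, 22.4%, 26.7% and 26.7% of all genes were. Runx1 was the 1 member lower from 2-fold, where 9.87%, 16.8%, 14.4% and 17.4% of all genes were, at a ratio of 0.0955, 0.145, 0.342 and 0.346 (interval 0.279 to 0.416). The Runx1 result holds with mixed endothelial subsets, those with markers of another class, set apart. With them counted, the day 12 Runx1 level was within 2-fold of the chondrocyte-like level, as given below. On day 7 Lyl1 rested on 2 endothelial UMIs, at a ratio of 3.30 (interval 0.266 to 8.26). For Erg the result does not extend to all cartilage. Endothelial-like cells had 201 and 192 CPM of Erg on days 10 and 12, against 194 and 275 CPM in articular chondrocyte-like cells. On days 7 and 8 they had 273 and 221 CPM, against 191 and 204 CPM in the Msmp and Prg4 cluster. The chondrocyte-like class was held by different clusters on different days, mostly the clusters led by Msmp and Prg4, by Col19a1 and Grem1, and by Trim17 and histone genes on days 7 and 8, and mostly hypertrophic cells on days 10 and 12, so its levels are read within a library only.

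Among the endothelial subsets Lmo2 was highest in arterial cells, and its interval there overlapped no other subset on day 10 or 12. Gata2 stood apart in arterial cells on day 10, and on day 12 its arterial interval overlapped those of the subsets led by Htr2b and Adh1 (95.8 CPM) and by Pde1c and Kcnn3 (84.2 CPM). Arterial endothelial-like cells had 582 and 384 CPM of Lmo2 on days 10 and 12, against 53.8 and 73.7 CPM in sinusoidal endothelial-like cells, the thin-walled vessels of marrow. The ratio was 10.5 (interval 7.44 to 16.2) and 5.16 (interval 3.64 to 7.52). Gata2 was 155 and 154 CPM in arterial and 43.7 and 75.2 CPM in sinusoidal cells, a ratio of 3.48 (interval 2.20 to 5.87) and 2.07 (interval 1.30 to 3.20). Both were higher from 2-fold on both days, 2 of 8 members, where 10.4% and 8.82% of all genes were. No member was lower from 2-fold, where 10.6% and 12.9% of all genes were. Runx1 in arterial cells rested on 10 and 8 UMIs, with a ratio of 1.01 (interval 0.397 to 2.29) and 0.756 (interval 0.276 to 1.54). The subsets are small, with 38 and 28 arterial and 28 and 72 sinusoidal cells, and hemoglobin transcripts stood at 13452 CPM in arterial and 1200.0 CPM in sinusoidal cells on day 12, against 8008 and 8795 CPM on day 10. Their part in the result was not tested.

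Along the red cell line the members parted. Early erythroid-like cells had 308 and 341 CPM of Tal1 on days 10 and 12, against 20.1 and 62.9 CPM in hematopoietic stem or progenitor-like cells, a ratio of 14.6 (interval 9.81 to 25.5) and 5.31 (interval 4.09 to 7.33). Tal1 was the 1 member higher from 2-fold, where 12.2% and 11.5% of all genes were. Lmo2 (1.30 and 1.10) and Lyl1 (0.935 and 0.793) stayed within 2-fold. Runx1, Cbfb, Gata2, Erg and Fli1 were lower from 2-fold on both days, 5 of 8 members where 35.6% and 26% of all genes were. Runx1 was 168 and 248 CPM in early erythroid-like cells and 736 and 748 CPM in progenitors. Cbfb was 11.9 and 26.1 CPM in early erythroid-like cells and 293 and 266 CPM in progenitors. Gata2 was 3.38 and 18.1 CPM in early erythroid-like cells and 66.7 and 57.9 CPM in progenitors. The progenitor class passed 9 of its markers and was led by Flt3 and Dntt. The unnamed Slamf1 and Muc13 subset had 140 CPM of Tal1 and 404 CPM of Gata2 on day 12. The sizes of the Tal1 and Gata2 differences therefore depend on which progenitors are taken as the start. Gata1, the GATA factor of red cells, was 198 and 204 CPM in early erythroid-like cells and 1.06 and 2.52 CPM, or 1 and 2 UMIs, in progenitors. The 4 hemoglobin genes summed to 190610.0 and 121244 CPM in early erythroid-like cells and 29075 and 7694 CPM in progenitors, so they took up part of the total that CPM divide by.

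In late erythroid-like cells Tal1 was lower again. The Tal1 level was 57.2 and 105 CPM there on days 10 and 12, 0.186 and 0.310 times that of early erythroid-like cells, and Gata2 was 0.226 and 0.109 (interval 0.00879 to 0.274) times, with 2 late erythroid UMIs on day 12. From 2-fold, 3 of 8 members were lower on day 10 and 2 on day 12, where 61.1% and 60.5% of all genes were, so a smaller share of the members than of all genes was lower. The 1 member higher from 2-fold was Erg on day 10 (2.39) and Fli1 on day 12 (2.32), where 10.8% and 10.7% of all genes were. Lmo2 was 276 and 255 CPM in late erythroid-like cells on days 10 and 12, below its early erythroid-like levels but within 2-fold. Runx1 in late erythroid-like cells was 86.1 CPM on day 10 and 247 CPM on day 12.

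**Figure D1:**
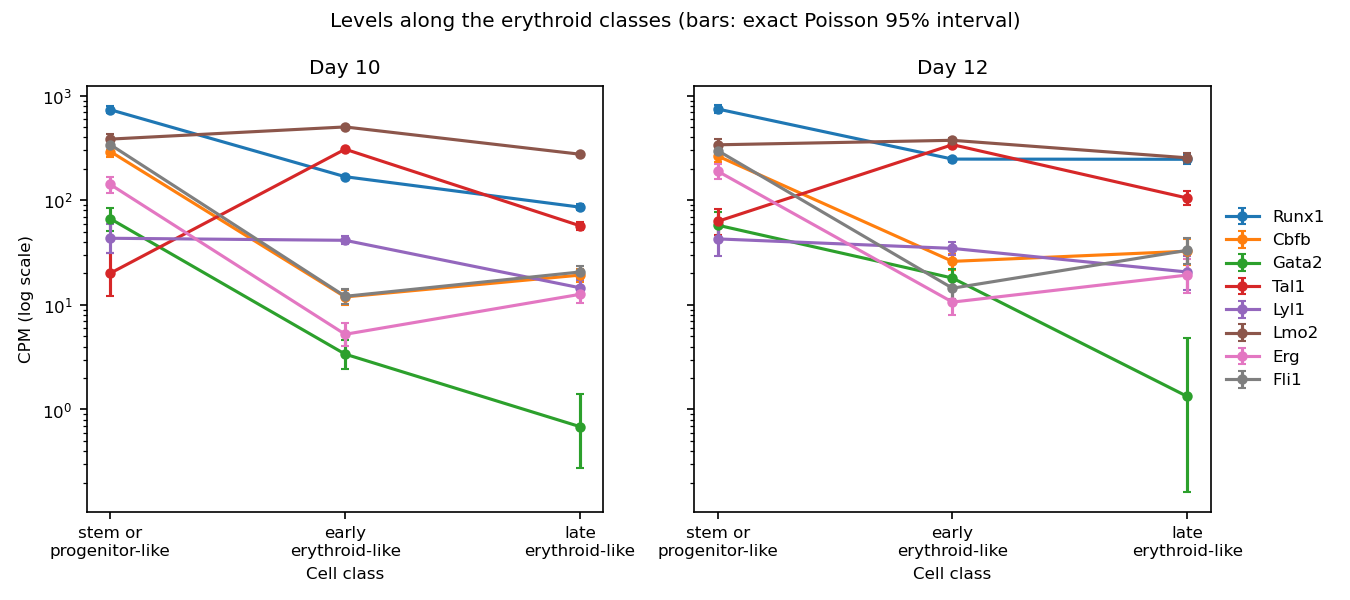
Level of each member in CPM (log axis) in hematopoietic stem or progenitor-like, early erythroid-like and late erythroid-like cells of the day 10 and day 12 libraries, with exact Poisson 95% intervals as bars. Tal1 peaks in early erythroid-like cells at 308 and 341 CPM on days 10 and 12, while Runx1, Cbfb, Gata2, Erg and Fli1 are highest in the progenitors. The Lyl1 intervals of progenitors and early erythroid-like cells overlap on both days.

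In reticular stromal-like cells Runx1 was high while most of the heptad was low. The Runx1 level of reticular stromal-like cells was 219, 209, 470.1 and 582 CPM on days 7, 8, 10 and 12, and that of fibroblast-like cells 217, 140.3, 150.4 and 169.6 CPM on days 7, 8, 10 and 12. The reticular level was 1.01, 1.49, 3.13 and 3.43 (interval 3.24 to 3.63) times the fibroblast level, so the classes were close on day 7 and apart on days 10 and 12. From 2-fold, 0 of 4 measured members were higher in reticular cells on day 7, 1 of 4 on day 8, and 3 of 8 on days 10 and 12, where 8.34%, 7.91%, 12.5% and 10.8% of all genes were. Against endothelial-like cells the reticular Runx1 level was 22.1-fold higher on day 12, while Gata2, Tal1, Lyl1, Lmo2, Erg and Fli1 were all lower from 2-fold. That is 1 of 8 members higher and 6 lower, where 18.3% and 12.1% of all genes were. Runx2, the bone-forming relative of Runx1, was 1598 CPM on day 7 and 2239 CPM on day 12 in reticular cells. Spi1 and Ptprc, which belong to blood, were 38.7 and 77.7 CPM there on day 12 and 2.13 and 0 CPM on day 7, and their part in the Runx1 level was not tested.

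Between days 7 and 12 most heptad members of the endothelium were higher or close. The Fli1 level of endothelial-like cells was 396, 369.6, 609 and 628 CPM on days 7, 8, 10 and 12, and the Cbfb level 96.8, 89.04, 159 and 203 CPM on days 7, 8, 10 and 12. Gata2 was 42.7, 21.9, 55.6 and 73.7 CPM on days 7, 8, 10 and 12, with its lowest value on day 8. Lmo2 was 65.5, 56.5, 135 and 95.4 CPM on days 7, 8, 10 and 12, highest on day 10. Erg was 273, 221, 201 and 192 CPM on days 7, 8, 10 and 12 and so lay in the other direction, and Tal1 was 34.2, 37.5, 52.4 and 50.5 CPM on days 7, 8, 10 and 12 and Lyl1 5.70, 9.19, 15.9 and 16.2 CPM on days 7, 8, 10 and 12.

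Relative to day 7, the day 12 endothelial level was 2.31-fold (interval 1.02 to 15.03) for Runx1, 2.03-fold (interval 1.49 to 3.04) for Cbfb, 1.62-fold (interval 1.03 to 3.12) for Gata2, 1.92-fold (interval 0.756 to 23.9) for Lyl1 and 1.58-fold (interval 1.34 to 1.89) for Fli1. The Runx1 and Lyl1 values rest on 3 and 2 UMIs of day 7, and the Lyl1 interval includes 1. Tal1 at 1.37, Lmo2 at 1.40 and Erg at 0.698 (interval 0.569 to 0.879) were within 1.5-fold. So 5 of 8 members were higher and 0 lower from 1.5-fold, where 33.3% and 19.4% of all 10608 genes were. The median log2 ratio was 0.68 over the members and 0.20 over all genes. When hemoglobin, mitochondrial and ribosomal genes were left out of the total, the median of all genes became 0.10, 4 members were higher and 1 was lower. In endothelial-like cells with no pan-hematopoietic UMI and at most 1% cartilage UMIs, which are 34 cells on day 12 and 7 on day 7, 1 member was higher and 1 lower.

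The endothelial cells of the days differed in other ways that move with these levels. The dissociation stress genes summed to 6274, 7469.8, 4560.4 and 1779.8 CPM on days 7, 8, 10 and 12, and a stress-led endothelial subset (Rnd1 and Hspa1a) held 21, 197, 0 and 1 of the cells. A subset led by H2ac8 and Kpna2 held 19, 77, 2 and 2. Cartilage genes summed to 5936, 5575, 474 and 2105 CPM, hemoglobin genes to 239, 1902, 9776 and 2091 CPM and pan-hematopoietic genes to 339, 385, 472 and 631 CPM, with Ptprc, Laptm5, Cd52 and Rac2 at 0 on day 7. Their part in the differences between days was not tested.

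**Figure D2:**
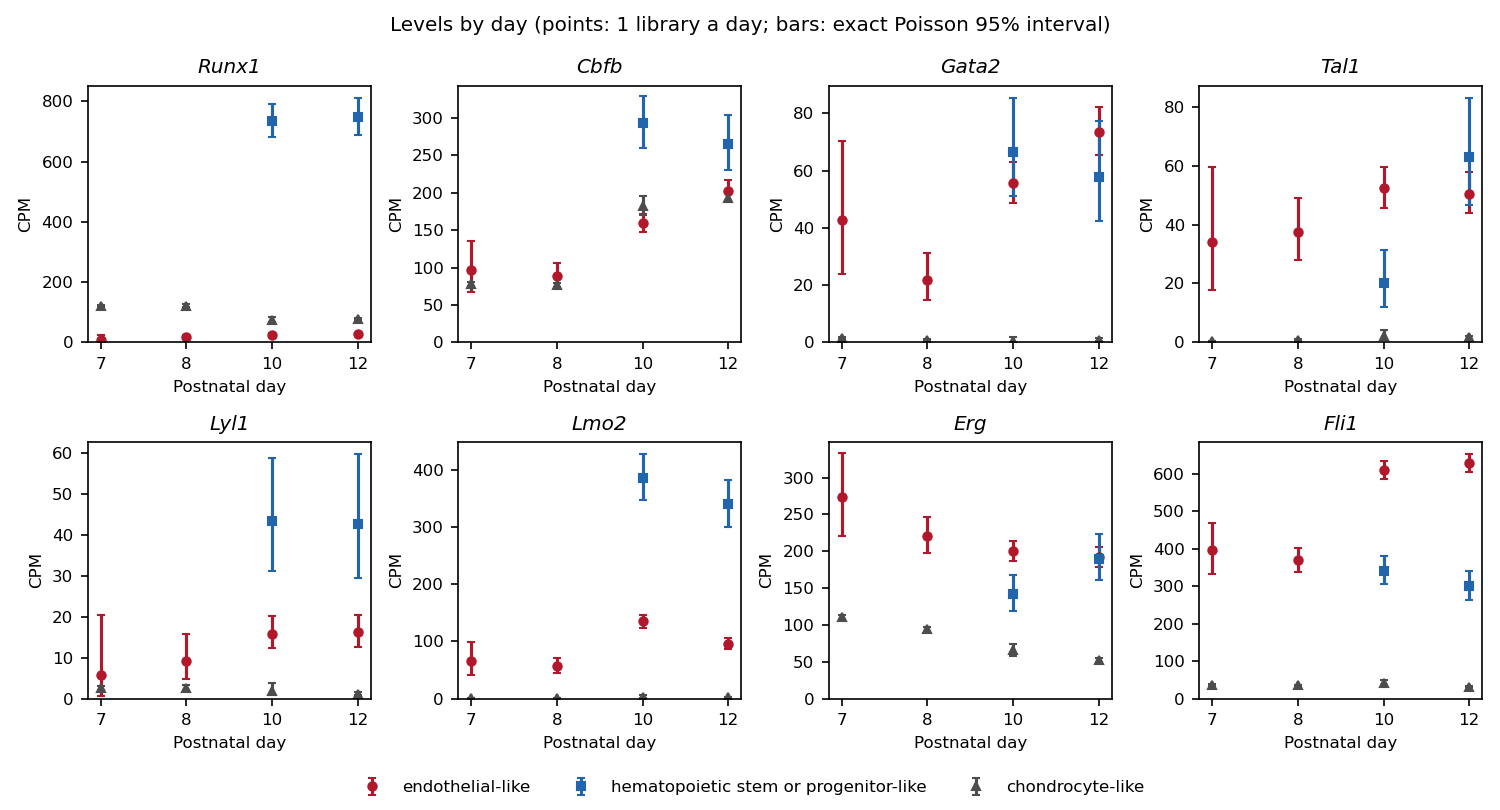
Level of each member in CPM on days 7, 8, 10 and 12 in endothelial-like, hematopoietic stem or progenitor-like (days 10 and 12 only) and chondrocyte-like cells, 1 panel per gene, with exact Poisson 95% intervals as bars and 1 library per day. Endothelial Runx1 stays between 8.54 and 26.1 CPM, under the progenitor values of 736 and 748 CPM. The chondrocyte-like class is held by different clusters on different days.

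The same days were set side by side in 7 further classes or clusters with at least 50 cells on both. Cbfb was higher on day 12 than on day 7 from 1.5-fold in 7 of the 8 classes and clusters compared, endothelium included, and 1.38-fold in fibroblast-like cells. In reticular stromal-like cells Runx1 was 2.63-fold (interval 2.18 to 3.26) higher, and Cbfb and Fli1 were higher too. With Lyl1 that is 4 of 7 measured members past 1.5-fold, where 37.4% of all genes were. Lyl1 had 0 UMIs on day 7, and its day 12 level of 3.27 CPM lies below the 6.38 CPM that 3 counts correspond to on day 7, so no difference was measured for it. Runx1 was 0.776 times its day 7 level in fibroblast-like cells and 0.725 times in dividing chondrocyte-like cells, both within 1.5-fold.

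In fibroblast-like cells 3 of 7 measured members (Gata2, Tal1 and Lmo2) passed 1.5-fold on day 12 over day 7 with the added UMI, where 31.2% of all genes were higher and 22.5% lower. All 3 had 0 UMIs on day 7, where 3 counts correspond to 5.47 CPM. The day 12 levels of Gata2 (2.72 CPM) and Tal1 (4.34 CPM) lie below that limit, so no difference was measured for them, while Lmo2, at 8.78 CPM, lies above it. In the macrophage-like cluster led by Il1a and Spic 3 of 7 were higher (Cbfb, Erg and Fli1), where 33.2% were higher and 14.5% lower. In the chondrocyte-like cluster led by Trim17 and histone genes 5 of 5 measured were higher, where 45.3% were higher and 17.4% lower. Lyl1 among them rested on 2 UMIs of day 12, at a ratio of 1.88 (interval 0.149 to 5.52). In the chondrocyte-like cluster led by Clstn2 and Notum 3 of 4 were higher (Runx1, Cbfb and Fli1), where 37.8% were higher and 15.7% lower. In dividing chondrocyte-like cells 2 of 5 were higher (Cbfb and Lmo2), where 34.3% were higher and 17.4% lower, and Lmo2 rested on 1 UMI of day 7 with a ratio of 10.2 (interval 3.07 to 802). In the cluster led by Mfap4 and Clec3b, which held 7 tendon or ligament and 6 fibroblast markers, Cbfb was higher and Erg lower of 4 measured, where 34.8% were higher and 15.9% lower. In reticular stromal-like cells no member was lower, where 17.7% of all genes were.

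With day 8 in place of day 7, Cbfb was higher on day 12 from 1.5-fold in all 8 classes and clusters. In endothelial-like cells 5 of 8 members were higher (Cbfb, Gata2, Lyl1, Lmo2 and Fli1) and 0 lower, where 37.9% and 15.4% of all genes were, and Runx1 was at 1.49 (interval 0.981 to 2.50). In reticular stromal-like cells Runx1, Cbfb and Lmo2 were higher, 3 of 7 measured, and 0 were lower, where 40.4% and 16.9% were, and Lmo2 rested on 1 UMI of day 8 with a ratio of 5.48 (interval 1.91 to 433). In fibroblast-like cells 3 of 8 were higher and 1 lower, where 37.3% and 19.3% were, with Tal1 resting on 3 UMIs of day 8 at 2.45 (interval 1.02 to 16.1). The Il1a and Spic cluster had 3 of 7 higher and 0 lower, where 34.8% and 14% were. The Trim17 and histone gene cluster had 3 of 4 higher and 0 lower, where 41.7% and 17.7% were. The Clstn2 and Notum cluster had 3 of 4 higher and 0 lower, where 38% and 15.7% were. Dividing chondrocyte-like cells had 2 of 5 higher and Runx1 lower, where 32.3% and 18.1% were. The Mfap4 and Clec3b cluster had 1 of 5 higher and 2 past 1.5-fold to the lower side (Lyl1 and Erg), where 41.8% and 16.2% were. Lyl1 had 0 UMIs there on day 12, and the added UMI alone sets its ratio of 0.591 (interval 0 to 2.42). Runx1 was at 2.77 in reticular stromal-like and 0.630 in dividing chondrocyte-like cells, and the difference between these classes was not tested.

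Joint detection was counted as the share of cells with UMIs of at least 3 of the 8 members, after each cell was thinned to 1000 UMIs so that depth is equal. A single thinning is a random draw, so the mean of 20 draws, added after the data were seen, stands beside each value. On day 12 the share was 23.2% (12.98% to 36.4%) of hematopoietic stem or progenitor-like cells (mean of 20 draws 20%), 10.9% (8.53% to 13.6%) of pro-B or pre-B-like cells (11.5%) and 7.93% (5.45% to 11.1%) of endothelial-like cells (5.63%). It was 2.88% (1.72% to 4.51%) of early erythroid-like cells (3.40%), 0.893% (0.546% to 1.38%) of articular chondrocyte-like cells (1.02%) and 0.339% (0.110% to 0.790%) of the other chondrocyte-like cells (0.322%). Mast cell or basophil-like cells had 19.4% (7.45% to 37.5%) in the first draw and 39.03% as the mean, with draws from 29.03% to 51.6%. By the mean of draws the progenitors and mast cells were thus ahead of the pro-B cells, and those ahead of the endothelium. The intervals of the first draw overlapped at each of these steps, so the order is a description of these cells only.

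On the other days the endothelial share was 3.92% (0.478% to 13.5%), 1.00% (0.207% to 2.90%) and 4.26% (2.22% to 7.32%) on days 7, 8 and 10, with means of 20 draws of 1.76%, 1.74% and 5.02%. The intervals of the first draw overlap between the days, apart from those of days 8 and 12. The first draw lay below the mean of draws on day 8 and above it on day 12. Its intervals leave out the error of thinning, so that separation rests on the draw taken. On day 10 the share was 27.3% (13.3% to 45.5%) of progenitors (21.97%), 11.5% (9.13% to 14.3%) of pro-B or pre-B-like cells (11.6%) and 0 of 160 chondrocyte-like cells (0.250%), where 0 allows up to 1.88% of cells. Without thinning the day 12 shares were 96.4% of progenitors, 76.2% of pro-B or pre-B-like, 76.2% of endothelial-like and 30.5% of chondrocyte-like cells, at median depths of 12487.5, 6013.5, 7555 and 14234.5 UMIs.

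**Figure D3:**
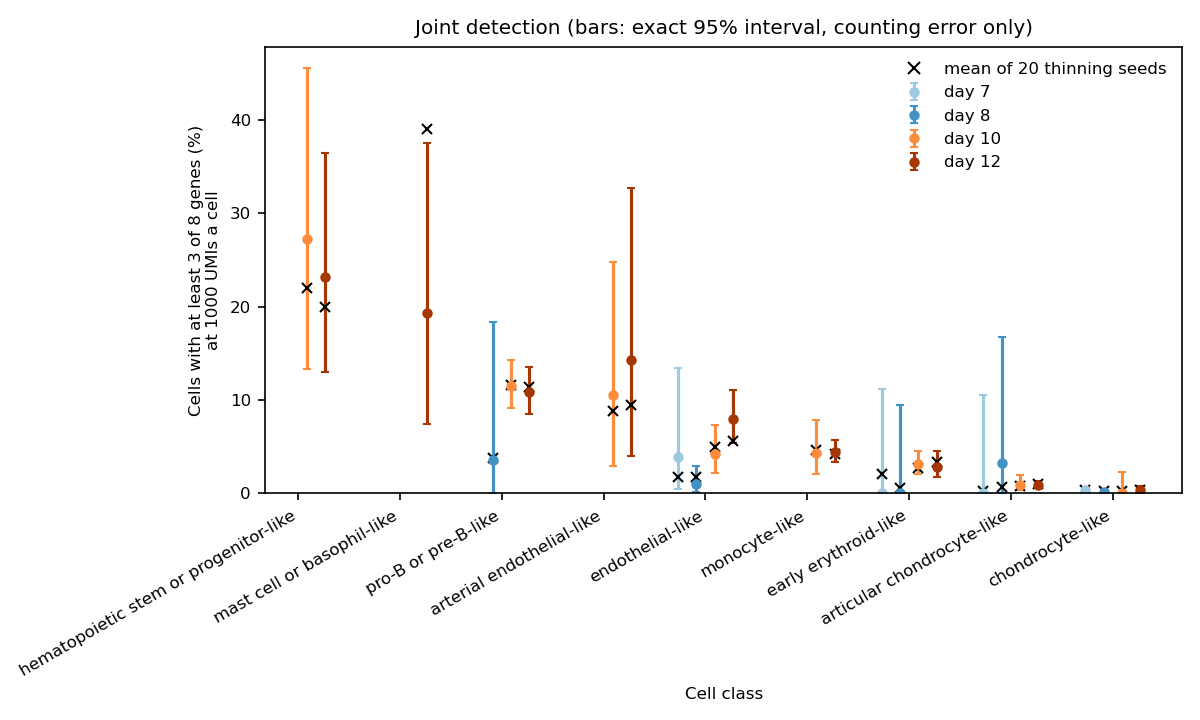
Percent of cells with UMIs of at least 3 of the 8 members after thinning to 1000 UMIs per cell, by class and day, with exact Clopper-Pearson 95% intervals as bars and the mean of 20 thinning draws as crosses. On day 12 hematopoietic stem or progenitor-like cells are at 23.2%, endothelial-like cells at 7.93% and chondrocyte-like cells at 0.339%.

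Cells with UMIs of all 8 members were found, before thinning, in 5 of 33 and 7 of 56 hematopoietic stem or progenitor-like cells of days 10 and 12. All 8 were found in 3 of 282 and 5 of 391 endothelial-like cells on the same days and in none of the 51 and 299 of days 7 and 8. In the mixed endothelial subsets all 8 were found in 4 of 144 and 10 of 196 cells of days 10 and 12. Such cells occurred in further blood classes too. Among these were 4 of 39 cells of the Slamf1 and Muc13 subset on day 12. Monocyte progenitor-like cells held all 8 in 2 of 37 and 2 of 42 cells on days 10 and 12. Runx1 together with at least 3 of the other 6 heptad members was held by 32 of 33 and 46 of 56 progenitors. It was held by 2 of 51, 6 of 299, 67 of 282 and 41 of 391 endothelial-like cells on days 7, 8, 10 and 12, and after thinning by 0, 0, 0 and 1 of them. After thinning, Runx1 itself was left in 14 of 33 and 35 of 56 progenitors. On days 10 and 12 the median depth was 21931 and 12487.5 UMIs in progenitors and 11496 and 7555 UMIs in endothelial-like cells. On days 7 and 8 the endothelial-like cells had 4983 and 3150 UMIs. The part of depth in the counts without thinning was not tested. The chondrocyte-like class, taken as a class that should lack most of the heptad, had 3 of 10363, 5 of 7623, 5 of 160 and 24 of 1474 such cells without thinning.

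Which members met in a cell was set beside the product of their separate shares, without thinning. Among the day 12 endothelial-like cells 30 held both Runx1 and Gata2, where the product gives 29.5. Runx1 and Tal1 met in 23, where the product gives 24.9. Runx1 and Lyl1 met in 14, where the product gives 9.13, Gata2 and Lyl1 in 34 where it gives 21.5, and Tal1 and Lyl1 in 29 where it gives 18.1. Lyl1 was in the 6 pairs farthest above their product, and the highest pair without it was Cbfb and Tal1, in 112 cells where the product gives 88.5. The cells of the class differ in depth, and the part of depth in these counts was not tested.

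Blood transcripts were counted in endothelial-like cells with and without a Runx1 UMI. The pan-hematopoietic genes summed to 527 and 829.5 CPM in those with Runx1 on days 10 and 12, against 438 and 568 CPM in those without. In chondrocyte-like cells, which are not blood, they summed to 87.2 and 246 CPM with Runx1 and 86.2 and 132 CPM without. Ptprc, the pan-leukocyte phosphatase CD45, was read as a share of cells. On day 12, 24 of 70 endothelial-like cells with Runx1 (34.3%, interval 23.3% to 46.6%) and 35 of 321 without it (10.9%, interval 7.71% to 14.8%) had a Ptprc UMI. On day 10 it was 18 of 80 (22.5%) with Runx1 and 18 of 202 (8.91%) without. On day 8 it was 0 of 22 with Runx1 and 4 of 277 without, and on day 7 no endothelial-like cell had a Ptprc UMI. The cells with Runx1 were deeper, at a median of 9839 UMIs against 7207 on day 12 and 14796 against 10614.5 on day 10, and the part of depth was not tested. In chondrocyte-like cells, which should lack Ptprc, a Ptprc UMI was found on day 12 in 148 of 644 (22.98%, median depth 18761 UMIs) with Runx1 and 129 of 830 (15.5%, median depth 10582 UMIs) without it, and on day 10 in 17 of 73 (23.3%, median depth 30490 UMIs) and 12 of 87 (13.8%, median depth 18128 UMIs). The chondrocyte-like cells were deeper in each of these, and the part of free RNA in the endothelial values was not tested.

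Endothelial subsets that also held markers of another class, such as macrophage, neutrophil or cartilage markers, had been set apart as mixed. Among them was a subset of 16 cells with 3 articular chondrocyte markers. It was led by Ccl21a and Prox1, genes of lymphatic endothelium, so it may be endothelial. The Runx1 level of the mixed subsets was 65.5, 155 and 134 CPM on days 8, 10 and 12, against 16.96, 25.6 and 26.1 CPM in the other endothelial-like cells. The ratio was 3.92, 6.01 and 5.10 (interval 4.11 to 6.43), and Runx1 was the 1 member higher from 2-fold on each of these days, of 7 measured on day 8 and 8 on days 10 and 12, where 8.83%, 11.4% and 11.9% of all genes were. The pan-hematopoietic genes summed to 335, 1346 and 1837 CPM in the mixed subsets and 385, 472 and 631 CPM in the others. With the mixed subsets counted as endothelium, Runx1 on day 12 was 0.873 times the chondrocyte level rather than 0.346 times.

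Genes known to work with the heptad were read from 4 lists. Of 12 complex partners, 10 had at least 20 UMIs in endothelial-like cells of days 12 and 7, and 7 were higher and 0 lower from 1.5-fold on day 12 compared with day 7, where 33.3% and 19.4% of all genes were, the shares to set beside all 4 lists. Their median log2 ratio was 0.98, beside 0.20 for all genes. They include Ldb1, the scaffold of the Lmo2 complex, at 40.1 CPM on day 12 and 8.54 CPM (3 UMIs) on day 7. Cbfa2t3, a corepressor of the same complex, was 181 CPM on day 12 and 42.7 CPM on day 7. Of 12 RUNX, GATA and ETS relatives, 6 of 8 measured were higher and 0 lower, with a median of 0.96. Ets1, an endothelial ETS factor, was 1071 CPM on day 12 and 382 CPM on day 7.

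Of 15 hemogenic and stem cell genes, 6 of 10 measured were higher and 1, Itga2b, was lower, with a median of 0.64. Cd34 was 788 CPM on day 12 and 456 CPM on day 7. Ptprc was 24.9 CPM on day 12 and at 0 on day 7. Gfi1 and Gfi1b, repressors that Runx1 activates when endothelium turns to blood in the embryo, were at 0 in endothelial-like cells on days 12 and 7, as was Etv2, which on day 7 allows up to 8.54 CPM. Of 11 blood genes known to be bound by Runx1, 3 of 6 measured were higher and 2 lower, with a median of 0.91. The higher genes were Spi1, Csf1r and Pf4, which are genes of myeloid cells and platelets, and the lower genes were Myl9 and Itga2b.

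Between progenitors and endothelium the relatives took opposite sides. On day 12 hematopoietic stem or progenitor-like cells had 171 CPM of Runx3 and 84.3 CPM of Spi1, against 3.62 and 16.2 CPM in endothelial-like cells. Ets1 was 17.6 CPM in progenitors and 1071 CPM in endothelium. Of the 10 relatives measured, 6 were higher and 3 lower in progenitors from 2-fold on day 12, where 19.9% and 22.2% of all genes were. On day 10, 5 were higher and 5 lower, where 19.9% and 24.9% of all genes were. Of the hemogenic and stem cell genes, Myb, the progenitor factor, was 339.8 CPM in progenitors and 5.07 CPM in endothelium, and Sox17, an arterial endothelial factor, was at 0 in progenitors and 111 CPM in endothelium.

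Likeness to each member was measured as Pearson's r of log2(CPM + 10) over 57 sums of library and class and 18494 genes. Each sum held at least 50 cells. Mast cell or basophil-like cells, highest in Gata2 and Runx1 on day 12, were fewer and so were not among the sums. The sums share libraries and depth, and classes are related, so r is a description. Runx1 was closest to Dock10 (r = 0.77) and Csk (r = 0.73), and Cbfb to Ppp3ca (r = 0.85). Gata2 was closest to Gm45705 (r = 0.91), Adgrl4 (r = 0.91) and Myct1 (r = 0.90). Tal1 was closest to Pigq (r = 0.89) and had Epor, the erythropoietin receptor, at r = 0.86. Lyl1 was closest to Atp8a1 (r = 0.87) and Cxcr4 (r = 0.84). Lmo2 was closest to Arrb1 (r = 0.91) and then to Tal1 (r = 0.83), the 1 member among the 5 nearest genes of another. Erg had no near match, with Asah2 (r = 0.70) first, and Fli1 was closest to Grap (r = 0.86). Between members r was 0.75 for Lyl1 and Lmo2, -0.47 for Cbfb and Tal1, -0.41 for Runx1 and Gata2, and 0.40 for Runx1 and Cbfb.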

How the data were processed

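The authors deposited whole-number UMI counts per gene and cell barcode, not normalized, aligned to GRCm39 per the submitters' processing notes. The aligner, counter, annotation and cell caller were not given in the sources used here. Digestion steps in the labels' protocol name another tissue, so which of them apply is uncertain. The members and all lists were chosen with earlier results of these data known.

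Barcodes under 500 genes or 1000 UMIs, or with over 15% mitochondrial UMIs, were left out. Scrublet marked 3 of all barcodes and so did not work as a doublet filter. Cells were clustered with Scanpy 1.11.5 (2000 variable genes without the members, 40 components, 20 neighbours, Leiden resolution 1, leidenalg 0.10.2) into 36 clusters, without integration. A class name needed at least 3 and 50% of its markers 2-fold above other cells and in 10% of cells. Endothelial and progenitor clusters were clustered again.

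Counts were summed per library and class. Ratios had 1 UMI added to each sum and were counted from 1.5-fold between days and 2-fold between classes, beside all genes with at least 20 UMIs, with no test. Undetected features use 3 counts as the limit. The named genes were the 8 members, the 5 genes most like each, and listed genes. The scripts were tested on simulated data (Python 3.11.15, SciPy 1.17.1, NumPy 2.4.6). Other settings tried are given in the closing section.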

Additional observations from a re-analysis of the deposited data

Results flagged for a closer look

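Erg had ratios of day 12 over day 7 on opposite sides of 1 in a pair of clusters. In the chondrocyte-like cluster led by Trim17 and histone genes Erg was 41.9 CPM on day 12 and 25.3 CPM on day 7, a ratio of 1.71 (interval 1.05 to 2.50). In the cluster led by Mfap4 and Clec3b, whose 10 leading genes hold 1 tendon or ligament marker and 2 of another class, it was 27.4 CPM on day 12 and 62.5 CPM on day 7, a ratio of 0.480 (interval 0.192 to 0.879). The ratios passed 1.5-fold to opposite sides in these clusters of the same libraries. The day 12 values rest on 26 and 9 UMIs, and the difference between the clusters was not tested.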

How the results depend on the processing

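Thinning depth set the joint shares of day 12. At 2000 UMIs, 23.8% of endothelial-like, 50.9% of hematopoietic stem or progenitor-like, 36.6% of pro-B or pre-B-like, 1.74% of chondrocyte-like and 13.8% of early erythroid-like cells held at least 3 members, and without thinning 76.2%, 96.4%, 76.2%, 30.5% and 58.4% in the same order of classes. From 2 members on, the shares at 1000 UMIs were 28.4%, 57.1%, 41.5%, 3.32% and 22.1%, and from 4 members 1.28%, 5.36%, 1.76%, 0% and 0.16%. Another thinning seed gave 4.60% of endothelial-like cells. Endothelial-like cells without blood or cartilage UMIs gave 2.94% for the joint share, 1 member higher and 1 lower between days 12 and 7, and 0.504 for the ratio of Runx1 to chondrocyte-like cells. These rest on 34 and 7 endothelial-like cells of days 12 and 7. From 2-fold, 2 members were higher on day 12 than on day 7. With hemoglobin, mitochondrial and ribosomal genes out of the total, and under the stricter filter of 2000 UMIs and 10% mitochondrial UMIs, 1 member was lower rather than 0. A pair of settings was added after the data were seen: the ratio of Runx1 in endothelial-like to chondrocyte-like cells was 0.873 with the mixed endothelial subsets counted and 0.145 in the day 8 library. Of 32 single levels, 20 moved beyond their counting intervals with that total, 9 with the stricter filter, 4 with the finer clustering and 4 with the members allowed among the variable genes. Of the 8 endothelial levels, 4 moved when cells with blood or cartilage UMIs were left out and 4 when the mixed subsets were counted. Leaving out the 6% highest doublet scores moved none of the 32 single levels. The count of members higher between days 12 and 7 did not hold in endothelial-like cells without blood or cartilage UMIs. The ratio of Runx1 in endothelial-like to chondrocyte-like cells stayed below 1 in the settings given here. It was within 2-fold in those cells and with the mixed subsets counted. At a minimum of 50 UMIs 34.99% and at a minimum of 1 UMI 19.3% of all genes were higher on day 12 in endothelial-like cells, where 20 UMIs gave 33.3%. The day 7 sums rest on few cells, and depth limits what can be said of Runx1 and Lyl1 there. No paired analysis was possible because each day is 1 library and no result comes from a test between replicates.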
